A study of Mus musculus with 77 samples.

Results

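Runx1, Gata2, Tal1, Lmo2 and Erg are transcription regulators of blood stem and progenitor cells, and 138 enhancers of the deposited enhancer table carry one of these 5 names as their assigned gene. They are 0.314% of the 44002 enhancers: 62 of Runx1, 15 of Gata2, 5 of Tal1, 35 of Lmo2 and 21 of Erg. An enhancer was taken by its assigned gene name, and no measured value entered this rule. The 5 genes themselves, however, were chosen with earlier results of these data known. In all, 77 mouse bone marrow samples are listed, and 53 of them are ChIP-seq and 24 RNA-seq libraries. Wild type cells are LSK (lineage-negative, Sca-1 positive, and ckit with no sign in the label), preGM (lineage-negative, Sca-1 negative, ckit positive and without CD150 or CD105), GMP (lineage-negative, Sca-1 negative, ckit positive, CD150 negative and FcgRII/III positive) and granulocytes (Mac1 and Gr-1 positive). The mutant group is preGM with the genotype CEBPA KO. The age of the mice, and how and in which cells Cebpa was deleted, are not given in the sources used here. Each enhancer has 1 deposited signal value per assay and group, behind which the labels list 2 libraries that the table does not separate. Every ratio below is therefore a description with no test and no error. Ratios are on a log2 scale after a pseudocount was added to both values (0.7 for H3K27ac, 2 for H3K4me1, 0.6 for PU.1 and 1 for expression), so they understate differences between low values. Signals and expression values are printed in the authors' own unit, without the pseudocount.

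RUNX1, with its partner CBFB, binds DNA through a Runt domain and is needed to form definitive blood stem cells. GATA2 is a zinc finger factor that keeps stem and early progenitor cells, TAL1 is a basic helix-loop-helix factor that pairs with E proteins, and LMO2 is a LIM-domain protein that binds no DNA itself but bridges TAL1, GATA factors and LDB1 in one complex. ERG belongs to the ETS family and is needed to maintain adult stem cells. On the way to granulocytes, PU.1 and CEBPA are factors known for opening and using myeloid enhancers. H3K4me1 marks enhancers whether or not they are in use, and H3K27ac marks those that are active.

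Promoter sequences from RefSeq (GRCm38.p6) were found for 4 of the 5 genes, Runx1, Gata2, Tal1 and Erg. The table holds 9 windows for them, 2 of Runx1, 2 of Gata2, 2 of Tal1 and 3 of Erg. Each window runs from 250 bases before to 50 bases after a start site. The windows shown were picked because they carry, or lack, the letters that GATA and RUNX factors are known to read. Capitals mark GATAA (GATA factors) and TGTGGT (RUNX) on either strand, so that a match on the opposite strand reads TTATC or ACCACA.
Runx1, chr16:92826025-92826324, minus strand: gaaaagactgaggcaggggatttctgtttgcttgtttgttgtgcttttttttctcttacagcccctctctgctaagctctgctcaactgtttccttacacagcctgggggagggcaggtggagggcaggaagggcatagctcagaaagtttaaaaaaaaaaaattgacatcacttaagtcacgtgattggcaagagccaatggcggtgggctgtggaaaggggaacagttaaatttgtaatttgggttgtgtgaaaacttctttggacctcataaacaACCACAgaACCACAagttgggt
Runx1, chr16:92697280-92697579, minus strand: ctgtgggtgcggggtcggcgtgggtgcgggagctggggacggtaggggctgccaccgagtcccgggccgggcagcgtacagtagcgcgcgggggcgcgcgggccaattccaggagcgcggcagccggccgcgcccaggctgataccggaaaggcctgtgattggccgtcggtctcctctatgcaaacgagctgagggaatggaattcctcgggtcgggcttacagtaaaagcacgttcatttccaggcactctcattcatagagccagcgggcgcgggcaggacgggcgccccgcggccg
Tal1, chr4:115056176-115056475, plus strand: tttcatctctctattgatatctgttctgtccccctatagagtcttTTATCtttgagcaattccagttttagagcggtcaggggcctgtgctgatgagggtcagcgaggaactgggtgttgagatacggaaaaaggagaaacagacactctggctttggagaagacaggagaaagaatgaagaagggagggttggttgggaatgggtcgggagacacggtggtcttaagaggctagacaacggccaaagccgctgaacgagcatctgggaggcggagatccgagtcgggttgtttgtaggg
Erg, chr16:95459299-95459598, minus strand: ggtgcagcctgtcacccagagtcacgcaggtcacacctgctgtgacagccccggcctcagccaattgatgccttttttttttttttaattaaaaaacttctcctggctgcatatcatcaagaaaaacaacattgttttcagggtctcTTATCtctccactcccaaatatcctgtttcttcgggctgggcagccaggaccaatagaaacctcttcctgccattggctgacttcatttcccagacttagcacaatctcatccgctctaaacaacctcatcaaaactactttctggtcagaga
Gata2, chr6:88193641-88193940, plus strand: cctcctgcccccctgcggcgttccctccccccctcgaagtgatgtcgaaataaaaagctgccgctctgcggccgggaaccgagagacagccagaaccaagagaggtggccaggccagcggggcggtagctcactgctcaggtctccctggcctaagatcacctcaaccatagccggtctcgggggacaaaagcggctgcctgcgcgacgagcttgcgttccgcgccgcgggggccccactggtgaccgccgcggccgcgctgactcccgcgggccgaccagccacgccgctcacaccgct
The first Runx1 window holds TGTGGT 2 times just after the start site, and the second, with 69% G and C against 45% in the first, holds neither motif. One GATAA match stands in the Tal1 window and 1 in the Erg window, and the Gata2 window holds neither motif. Of the 9 windows, shown or not, 2 hold GATAA and 1 holds TGTGGT. Of all 32851 promoter windows in the table, 25.4% hold GATAA and 16.8% hold TGTGGT. The E-box CANNTG was found in 4 of the 9 windows and in 72.3% of all windows. The ETS core GGAA was in all 9 and in 96%, and GAGGAA, which contains GGAA, was in 2 and in 28.3%. The enhancer coordinates below are in build mm9 as deposited, so the windows above were not placed among them.

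The stage labels were checked against marker genes. In the stage columns of expression, Ly6a, which encodes Sca-1, was 1191 in LSK, 462 in preGM, 87.1 in GMP and 357 in granulocytes. The primary granule gene Mpo was 2312 in LSK, 10292 in preGM, 18646 in GMP and 1982 in granulocytes, and Lcn2, a gene of mature granulocytes, was 23.3 in LSK, 62.4 in preGM, 97.1 in GMP and 8414 in granulocytes. Cebpa in the genotype columns was 208 in wild type and 48.3 in KO preGM, a log2 ratio of -2.09, so the targeted gene was lower in the mutant. The KO value lay above 15% of genes in that column, where the B cell genes Pax5 and Cd79a were 65.1 and 27.1. Whether any Cebpa RNA remained in the mutant therefore cannot be read from this value. The stage columns and the genotype columns each hold a wild type preGM value, and these 2 values differed at least 2-fold at 4992 of 10096 genes (49.4%). Expression is therefore compared only within each set, and nothing in the table says which libraries either set came from.

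Expression of Gata2, Tal1 and Lmo2, the 3 genes of the GATA-TAL1-LMO2 complex, was at least 2-fold lower in GMP than in preGM, whereas Runx1 and Erg differed less. Gata2 was 273 in LSK, 482 in preGM, 212 in GMP and 147 in granulocytes. It was highest in preGM, with a log2 ratio of 0.82 over LSK and -1.18 from preGM to GMP. Tal1 was 315 in LSK, 375 in preGM, 173 in GMP and 82.1 in granulocytes, with log2 ratios of -1.11 from preGM to GMP and -1.07 from GMP to granulocytes. Lmo2 was 4063 in LSK, 4291 in preGM, 1366 in GMP and 568 in granulocytes, nearly level between LSK and preGM and then lower at each step, with log2 ratios of -1.65 and -1.26. Runx1 was 554 in LSK, 665 in preGM, 649 in GMP and 377 in granulocytes, with preGM and GMP close together and granulocytes lowest. Erg was 1093 in LSK, 718 in preGM, 475 in GMP and 781 in granulocytes, so its low point was GMP and its granulocyte value lay above its GMP value by a log2 ratio of 0.72. In bulk samples, fewer cells that express a gene and less RNA of it per cell cannot be told apart.

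**Figure D1:**
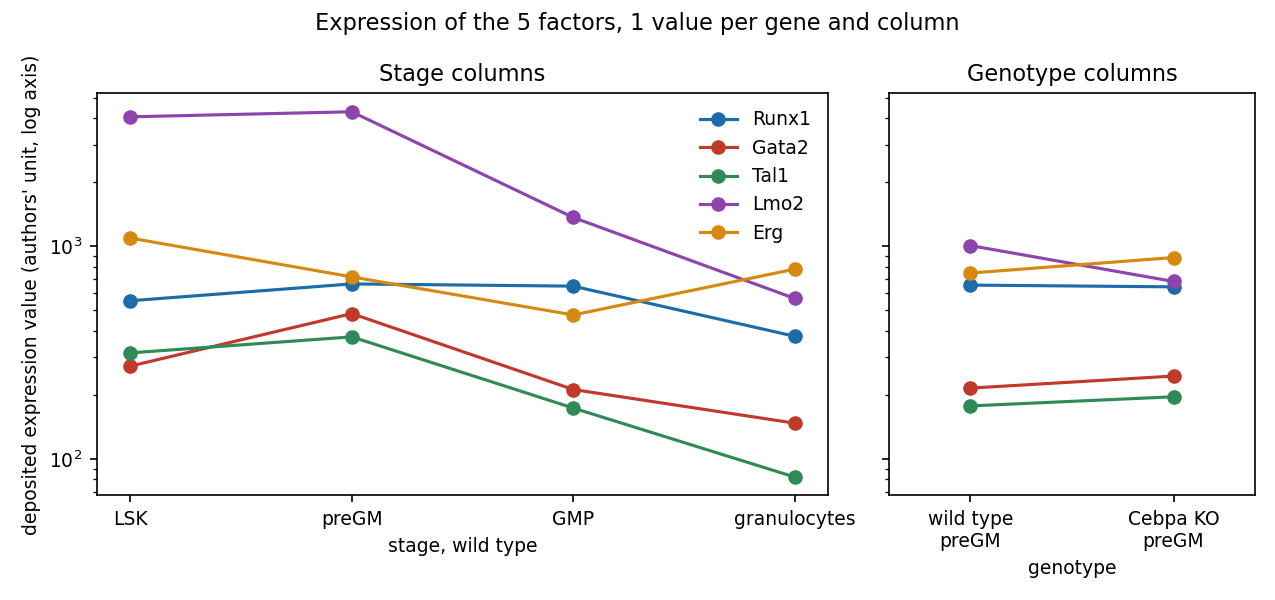
Deposited expression value of each of the 5 genes (log axis, authors' unit) in the 4 wild type stage columns (left) and the 2 genotype columns (right), 1 point per gene and column with no replicate error. Gata2, Tal1 and Lmo2 lie lower in GMP than in preGM, Erg has its lowest point in GMP, and Lmo2 is the gene that lies furthest below its wild type value in KO preGM. Length scaling is not stated, so heights of different genes are not to be compared.

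Against all genes, 3 of 5 members at least 2-fold lower from preGM to GMP stands beside 5.42% of genes, with 4.33% higher. From LSK to preGM none of the 5 reached 2-fold, beside 3.26% of genes higher and 1.4% lower. From GMP to granulocytes, Tal1 and Lmo2 were at least 2-fold lower, beside 24% of genes lower and 14.9% higher. The median gene had a log2 ratio of -0.17 at that step, and after subtracting it Lmo2 alone stayed past 2-fold. In the genotype columns none of the 5 reached 2-fold, beside 0.466% of genes higher and 0.644% lower.

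In Cebpa KO preGM, Lmo2 was the member that differed most. It was 1007 in wild type and 683 in KO preGM, a log2 ratio of -0.56. Erg was 748 in wild type and 885 in KO preGM, Gata2 215 in wild type and 245 in KO preGM and Tal1 177 in wild type and 196 in KO preGM, each somewhat higher in the mutant by log2 ratios of 0.24, 0.19 and 0.14. Runx1 was 657 in wild type and 644 in KO preGM, a log2 ratio of -0.03. In the same columns 3 of 4 granulocyte-monocyte progenitor, 3 of 6 mature granulocyte and 2 of 3 monocyte markers measured were at least 2-fold lower in KO preGM. So were 2 of 7 stem and multipotent progenitor markers, but no measured erythroid or megakaryocyte marker. No marker of these lists was at least 2-fold higher. Whether a different mixture of cells has a part in the ratios of the 5 genes was not tested.

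Markers of other lineages moved with part of this pattern. Klf1, the erythroid Krüppel-like factor, was 40.1 in LSK, 189 in preGM, 64.1 in GMP and 167 in granulocytes, and Itga2b, a platelet integrin that is also a known target of these factors, was 52.8 in LSK, 144 in preGM, 106 in GMP and 129.8 in granulocytes. Like Gata2, both had a higher value in preGM than in LSK and a lower one in GMP. The erythroid markers measured, 2 of 6, summed to 57.1 in LSK, 205 in preGM, 79.6 in GMP and 289 in granulocytes. The megakaryocyte markers, 4 of 5, summed to 161, 259, 210 and 350 in the same order. No gene in the stage columns was at 0 (lowest value 2.04), so values above 0 alone do not show expression of either list's markers. Their part in the Gata2, Tal1 and Lmo2 values was not tested. Of the stem and multipotent progenitor markers, 6 of 7 were at least 2-fold lower in GMP than in preGM.

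Of 18 listed partners and relatives of the 5 factors, 14 were measured, and 7 of them were at least 2-fold lower in GMP than in preGM with none higher (median log2 ratio -1.01). Zfpm1, the GATA cofactor FOG1, had a log2 ratio of -2.14, and Gfi1b, a transcriptional repressor needed in the erythroid and megakaryocyte lines, -2.03. The LIM-domain binder Ldb1 was at -1.79, the single-stranded DNA binding partner Ssbp2 at -1.41, the E protein gene Tcf4 at -1.31 and the Tal1 relative Lyl1 at -1.21. In GMP, Zfpm1 was 27.6, Gfi1b 32.9 and Ldb1 28.0, each above 22% to 26% of genes, so their ratios rest on low values. Ssbp2, Tcf4 and Lyl1 were higher there, at 491, 387 and 314. For Ldb1, wild type preGM was 99.1 in the stage columns and 860 in the genotype columns. From GMP to granulocytes 5 of the 14 were at least 2-fold higher and 4 lower, beside the 14.9% and 24% of all genes given above. Ldb1 had a log2 ratio of 2.81, while Tcf12, another E protein gene, was at -3.54. None of the 14 reached 2-fold in KO preGM.

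Of 16 listed target genes, 13 were found under the symbols listed, and a target listed by an alias was counted with the partners only. From preGM to GMP, 7 of the 13 were at least 2-fold lower and 1 higher. The homeobox gene Meis1 had a log2 ratio of -3.15 and Hlf, a stem cell factor, -2.95, while Gfi1 was at 1.22. From LSK to preGM 3 were at least 2-fold higher, with none lower by that much, and from GMP to granulocytes 2 were higher and 7 lower, beside the same shares of all genes. In KO preGM the count was 3 lower and 0 higher: Cebpa itself, Csf1r and Hlf.

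The 5 genes differ in how their enhancers are laid out. Runx1 ranks 4 among 10096 genes by number of enhancers, where Etv6 with 74 has the most, and its 62 are spread over 539 kb of chromosome 16 with a gap of up to 135 kb between neighbours. Lmo2 has 35 in 84.3 kb of chromosome 2, Erg 21 in 43.3 kb of chromosome 16 and Gata2 15 in 60.1 kb of chromosome 6. Tal1 has 5 in 6.49 kb of chromosome 4, the densest set at 7.71 enhancers per 10 kb. The median gene has 2. Exons and introns could not be placed around them without an annotation of build mm9, and the assignment to a gene is the authors'.

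Each enhancer has a stage class from the authors, which names the stages it was assigned to. A class that names LSK covers 23.9% of the 138 and 15.3% of all enhancers, and GMP alone covers 30.4% against 17.2%. A class that names granulocytes covers 21% of the members and 42.5% of all. No Gata2 enhancer and no Tal1 enhancer has a class naming granulocytes, compared with 5 of 35 of Lmo2, 15 of 62 of Runx1 and 9 of 21 of Erg. The authors list neither PU.1 nor CEBPA at 73.9% of members and 59.5% of all enhancers. CEBPA is named at 17 of the 138 (12.3%, against 21.5% of all) and at none of the 21 Erg enhancers.

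From LSK to preGM few of the 138 enhancers reached 2-fold for a histone mark. At least 2-fold higher H3K27ac was seen at 2 of them and lower at none, beside 0.72% and 0.364% of all enhancers. For H3K4me1 the count was 0 in both directions, beside 0.00227% higher and 0.00682% lower. PU.1 signal was at least 2-fold higher at 11 and lower at none, beside 6.56% and 0.0364%, and 10 of the 11 belong to Runx1. The median PU.1 ratio of all enhancers was 0.30 on the log2 scale, and after subtracting it 5 members were higher and 3 lower.

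From preGM to GMP, 12 of 138 had at least 2-fold higher H3K27ac and none lower, beside 9.21% and 0.411% of all. Of these, 9 are Runx1 enhancers, 2 are of Lmo2 and 1 is of Tal1. H3K4me1 was at least 2-fold higher at 4 and lower at none, beside 0.855% and 0.00227%, and these are 2 Runx1 and 2 Erg enhancers. The medians of all enhancers were 0.29 for H3K27ac and 0.21 for H3K4me1, and after subtracting them 3 members were higher and 1 lower for H3K27ac and none in either direction for H3K4me1. PU.1 was lower at 1 Lmo2 enhancer and higher at none, beside 0.775% lower and 0.768% higher.

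The step from GMP to granulocytes separated the 5 genes most. H3K27ac was at least 2-fold lower at 19 of the 138 and higher at 3, beside 6.05% lower and 14.1% higher of all enhancers. By gene the lower ones were 4 of 5 for Tal1, 5 of 15 for Gata2, 4 of 35 for Lmo2, 3 of 21 for Erg and 3 of 62 for Runx1, and all 3 higher ones were Erg enhancers. Median log2 ratios were -1.51 for Tal1, -0.36 for Gata2, -0.41 for Lmo2, -0.13 for Runx1 and 0.03 for Erg, and 0.14 over all enhancers. H3K4me1 was lower at 8 and higher at none, beside 2.81% and 9.69%, and 6 of the 8 are Gata2 enhancers and 2 are of Runx1. Its medians were -0.97 for Gata2, -0.21 for Lmo2, -0.09 for Runx1, 0.28 for Erg and 0.29 for Tal1, against 0.32 over all enhancers. Gata2 enhancers thus had lower values of both marks at 12 of 15, whereas at Tal1 H3K27ac was lower and H3K4me1 higher at 4 of 5, beside 21.5% of all enhancers. Against the median of all enhancers, however, 2 of the 5 Tal1 H3K4me1 ratios were higher and 3 lower. At Erg both marks were higher at 12 of 21 (57.1%, beside 46.8% of all enhancers), with a median H3K4me1 ratio slightly below that of all enhancers. Both marks were lower at 52.9% of the members and at 20.6% of all enhancers. Relative to the medians of all enhancers, 23 members were at least 2-fold lower and 3 higher for H3K27ac, and 19 lower and none higher for H3K4me1, 12 of them at Gata2. The counts rest on the pseudocounts: with 4 times larger ones, 4 members were lower for H3K27ac and none for H3K4me1.

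**Figure D2:**
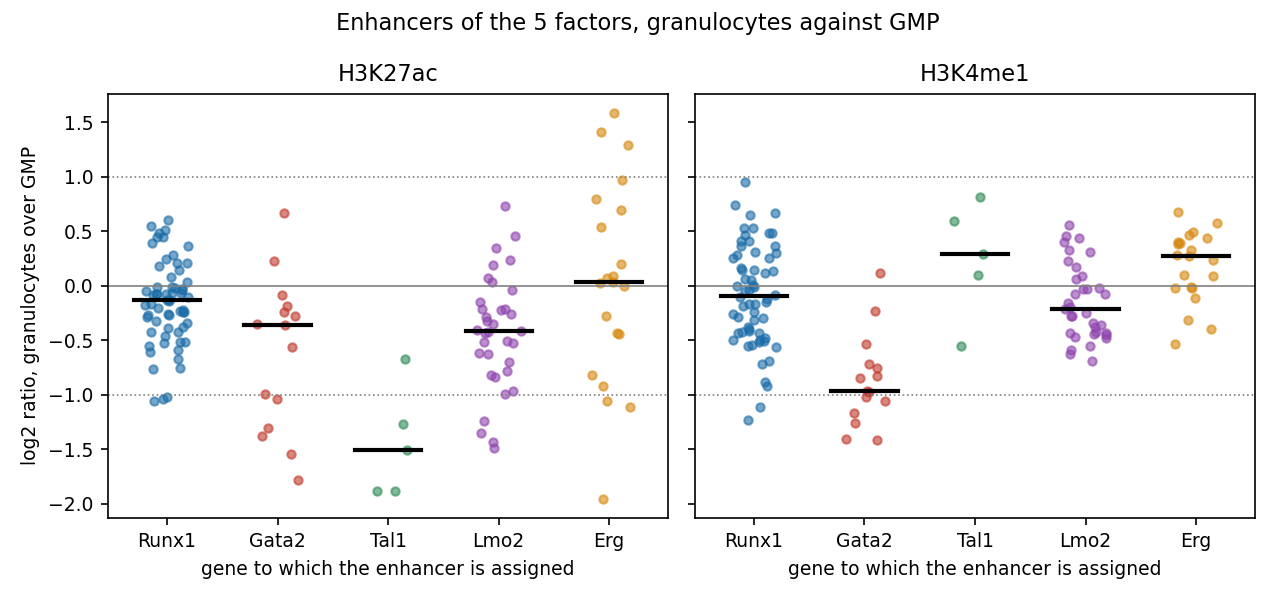
Log2 ratio of signal in granulocytes over GMP for each enhancer (points) of each gene, H3K27ac on the left and H3K4me1 on the right, with the black bar at the gene's median and dotted lines at 2-fold. The Tal1 points lie low for H3K27ac (median -1.51) but mostly above 0 for H3K4me1 (median 0.29), while the Gata2 points lie low for H3K4me1 (median -0.97).

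At Tal1, the enhancer at chr4:114729602-114729660 had the highest H3K27ac of the gene at every stage, with 5.37 in LSK, 9.3 in preGM, 12.5 in GMP and 3.97 in granulocytes. The value was higher at each step up to GMP and in granulocytes was below that in LSK (log2 ratio -1.51 from GMP). Its H3K4me1 ran the other way at the end, with 4.26 in LSK, 3.85 in preGM, 6.14 in GMP and 12.3 in granulocytes. The authors list it as bound by both factors, and it had the highest PU.1 of the gene (6.17 in LSK, 8.62 in preGM and 7.72 in GMP) and a CEBPA signal of 9.35 in preGM. The other 4 Tal1 enhancers had CEBPA signals between 0.261 and 0.692. At chr4:114735344-114735493, a PU.1-bound enhancer, H3K27ac was 2.0 in LSK, 1.81 in preGM, 4.61 in GMP and 0.744 in granulocytes, and at chr4:114736003-114736090 it was 2.66 in LSK, 2.8 in preGM, 5.44 in GMP and 0.970 in granulocytes. Both had a log2 ratio of -1.88 in granulocytes against GMP. The enhancer at chr4:114732280-114732481 is the exception for H3K4me1, with 2.31 in LSK, 2.62 in preGM, 3.81 in GMP and 1.97 in granulocytes.

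At Gata2, 9 enhancers stand within 8.78 kb, and all of them had low H3K4me1 in granulocytes. Their median H3K4me1 was 4.44 in LSK, 4.16 in preGM, 3.79 in GMP and 0.892 in granulocytes. At chr6:88152243-88152281 H3K4me1 was 5.57 in LSK, 4.64 in preGM, 5.36 in GMP and 0.760 in granulocytes, and H3K27ac was 2.05 in LSK, 2.58 in preGM, 2.56 in GMP and 0.553 in granulocytes. At chr6:88151835-88151966 H3K27ac was 1.5 in LSK, 1.73 in preGM, 2.96 in GMP and 0.362 in granulocytes, the lowest granulocyte-to-GMP ratio of the gene (-1.78). The enhancer at chr6:88153993-88154056 had 7.48 in LSK, 6.56 in preGM, 5.67 in GMP and 0.892 in granulocytes for H3K4me1, a log2 ratio of -1.41 in granulocytes against GMP, with -0.28 for H3K27ac.

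One Gata2 enhancer, chr6:88116195-88116330, had another pattern. It is the gene's only enhancer listed with CEBPA, with a CEBPA signal of 8.41, while the next highest of the gene was 1.56. H3K27ac was 2.81 in LSK, 4.33 in preGM, 2.58 in GMP and 0.943 in granulocytes. H3K4me1 was 2.81 in LSK, 3.49 in preGM, 6.05 in GMP and 6.74 in granulocytes, so it alone of the 15 had a higher granulocyte value than GMP value, by a log2 ratio of 0.12 that is below the median of all enhancers. PU.1 was 1.99 in LSK, 3.69 in preGM and 4.76 in GMP. In KO preGM its H3K27ac was the one Gata2 value past 2-fold, with 4.33 in wild type and 1.69 in KO preGM (log2 ratio -1.07), and PU.1 was 3.69 in wild type and 1.95 in KO preGM.

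**Figure D3:**
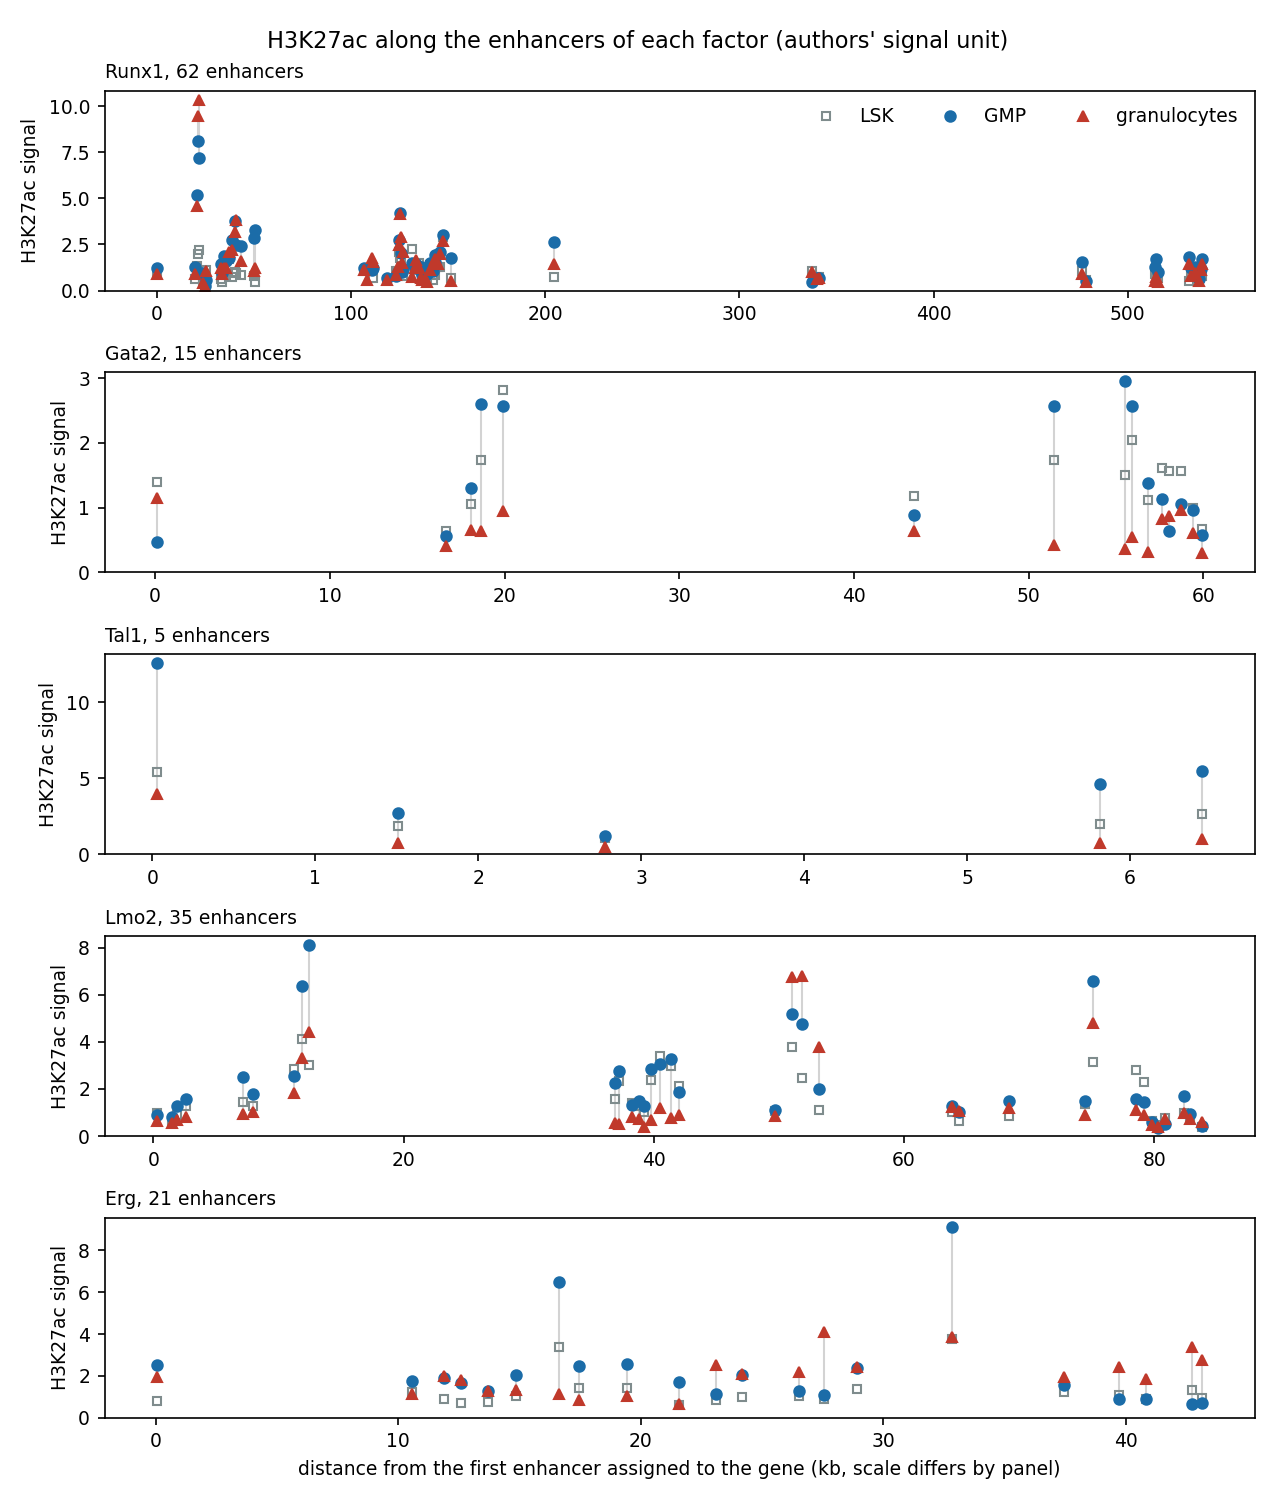
H3K27ac signal (authors' unit) of each enhancer against its distance in kb from the first enhancer assigned to the same gene, for LSK (open squares), GMP (filled circles) and granulocytes (triangles), with a grey line joining the GMP and granulocyte values. Granulocyte values lie under GMP values at all 5 Tal1 enhancers. At Runx1, Lmo2 and Erg some enhancers lie higher in granulocytes than in GMP.

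Lmo2 enhancers fell into groups of neighbours that differed in granulocytes, taking a gap of 5 kb or more to start a new group. The 9 enhancers in 5.22 kb from position 103771223 had a median H3K27ac of 2.14 in LSK, 1.76 in preGM, 2.26 in GMP and 0.721 in granulocytes. All 4 Lmo2 enhancers with at least 2-fold lower H3K27ac in granulocytes lie there. At chr2:103771515-103771650 H3K27ac was 2.33 in LSK, 2.14 in preGM, 2.75 in GMP and 0.530 in granulocytes, and at chr2:103775485-103776001 it was 2.97 in LSK, 2.53 in preGM, 3.28 in GMP and 0.773 in granulocytes. The next group, 4 enhancers in 3.78 kb, went the other way, with medians of 3.37 in GMP and 5.26 in granulocytes. Within it, chr2:103785379-103785416 had the highest mean H3K27ac of the gene (3.78 in LSK, 4.63 in preGM, 5.18 in GMP and 6.77 in granulocytes), and its neighbour chr2:103786138-103786350 had 2.46 in LSK, 4.95 in preGM, 4.76 in GMP and 6.78 in granulocytes. The CEBPA-listed enhancer chr2:103787463-103787622, with the gene's highest CEBPA signal (4.06), had 1.12 in LSK, 0.918 in preGM, 1.98 in GMP and 3.76 in granulocytes. Another group ends at chr2:103746714-103746968, where GMP held the highest H3K27ac of any Lmo2 enhancer, with 3.01 in LSK, 3.03 in preGM, 8.1 in GMP and 4.41 in granulocytes.

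Higher and lower Erg enhancers in granulocytes lay among each other along the locus. The enhancer with the highest mean H3K27ac, chr16:95677085-95677446, had 3.76 in LSK, 8.59 in preGM, 9.13 in GMP and 3.86 in granulocytes, and it was at least 2-fold higher in preGM than in LSK (log2 ratio 1.06). At the PU.1-bound enhancer chr16:95660954-95661101, H3K27ac was 3.37 in LSK, 3.59 in preGM, 6.5 in GMP and 1.16 in granulocytes, a log2 ratio of -1.95 in granulocytes against GMP, yet its H3K4me1 was 6.48 in LSK, 4.85 in preGM, 5.28 in GMP and 6.57 in granulocytes. The last 2 enhancers at the high-coordinate end had low H3K4me1 in LSK and preGM. There, chr16:95687127-95687193 had H3K4me1 of 0.508 in LSK, 0.896 in preGM, 4.41 in GMP and 7.03 in granulocytes and H3K27ac of 1.34 in LSK, 0.353 in preGM, 0.665 in GMP and 3.4 in granulocytes. Its neighbour chr16:95687472-95687690 had 0.527 in LSK, 0.869 in preGM, 3.78 in GMP and 7.26 in granulocytes for H3K4me1 and 0.945 in LSK, 0.793 in preGM, 0.712 in GMP and 2.75 in granulocytes for H3K27ac. From preGM to GMP, H3K4me1 of both was at least 2-fold higher, though not after subtracting the median ratio of all enhancers, and their GMP values lay under the upper quartile of all enhancers (4.89). At chr16:95671881-95672053, the other Erg enhancer at least 2-fold higher in granulocytes, H3K27ac was 0.900 in LSK, 1.06 in preGM, 1.11 in GMP and 4.11 in granulocytes. PU.1 was highest at chr16:95656243-95656389, with 4.0 in LSK, 7.74 in preGM and 5.1 in GMP.

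At Runx1, 3 neighbouring enhancers had the highest H3K27ac in GMP and in granulocytes. The one at chr16:92697653-92697679 had 1.97 in LSK, 3.32 in preGM, 8.12 in GMP and 9.5 in granulocytes, and chr16:92698366-92698480 had 2.21 in LSK, 2.59 in preGM, 7.19 in GMP and 10.4 in granulocytes. Both were at least 2-fold higher in GMP than in preGM (log2 ratios 1.13 and 1.26) and neither was lower in granulocytes. Their neighbour, chr16:92697294-92697377, had 1.32 in LSK, 2.4 in preGM, 5.2 in GMP and 4.56 in granulocytes. H3K4me1 at chr16:92698366-92698480 was 9.63 in LSK, 6.28 in preGM, 8.36 in GMP and 11.4 in granulocytes, so this mark was at its lowest in preGM.

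Other Runx1 enhancers had their highest H3K27ac in GMP. At chr16:92726616-92726684 H3K27ac was 0.799 in LSK, 0.460 in preGM, 2.86 in GMP and 1.03 in granulocytes, and at chr16:92727182-92727486 it was 0.478 in LSK, 0.624 in preGM, 3.27 in GMP and 1.21 in granulocytes. They make 2 of the 3 Runx1 enhancers at least 2-fold lower in granulocytes, and the last, chr16:92827678-92828368, had 0.666 in LSK, 0.137 in preGM, 1.75 in GMP and 0.511 in granulocytes. Farther away, 2 Runx1 enhancers had at least 2-fold higher H3K4me1 in GMP than in preGM. At chr16:93016475-93016673 H3K4me1 was 0.330 in LSK, 1.03 in preGM, 4.47 in GMP and 3.69 in granulocytes, while H3K27ac stayed between 0.611 and 0.714 over the 4 stages. At chr16:93014050-93014249 H3K4me1 was 0.867 in LSK, 1.29 in preGM, 4.71 in GMP and 6.26 in granulocytes. By contrast, chr16:93191072-93191218 had 1.53 in LSK, 3.26 in preGM, 4.72 in GMP and 0.872 in granulocytes, the lowest granulocyte-to-GMP ratio of H3K4me1 for the gene (-1.23).

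The highest mean PU.1 at Runx1 was in 3 neighbouring enhancers. At chr16:92801984-92802116 PU.1 was 12.6 in LSK, 18.8 in preGM and 14.1 in GMP, at chr16:92801078-92801390 5.82 in LSK, 17.2 in preGM and 10.6 in GMP and at chr16:92802568-92802652 7.06 in LSK, 10.7 in preGM and 7.69 in GMP. These 3 had signal in LSK already, and chr16:92801984-92802116 is listed with CEBPA too. The largest ratio from LSK to preGM was at chr16:92716697-92716803, where PU.1 was 1.64 in LSK, 6.6 in preGM and 4.05 in GMP (log2 ratio 1.69). At chr16:92715302-92715902, 1 of its neighbours, CEBPA signal was 12.9, the highest of all 138 enhancers, and PU.1 was 0.646 in LSK, 2.85 in preGM and 3.05 in GMP.

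In Cebpa KO preGM, PU.1 signal was at least 2-fold lower at 5 of the 138 enhancers and higher at none, beside 6.15% of all enhancers lower and 0.0955% higher. The lowest ratio was at the Runx1 enhancer chr16:92716697-92716803, with 6.6 in wild type and 1.17 in KO preGM (log2 ratio -2.03), so the KO value was below the LSK value of 1.64. The second Runx1 enhancer, chr16:93191974-93192278, had 3.25 in wild type and 1.09 in KO preGM. The Lmo2 enhancers were chr2:103774729-103775062, with 5.58 in wild type and 2.18 in KO preGM, and chr2:103798086-103798269, with 2.12 in wild type and 0.676 in KO preGM. The Erg enhancer was chr16:95663807-95663924, with 4.18 in wild type and 1.69 in KO preGM. After subtracting the median ratio of all enhancers (-0.27), 1 of the 5 stayed past 2-fold.

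H3K27ac in KO preGM was at least 2-fold lower at 3 members and higher at 1, beside 0.47% lower and 0.441% higher of all enhancers. Besides the Gata2 enhancer given above, the lower ones were the Runx1 enhancer chr16:92784763-92784941, with 1.69 in wild type and 0.401 in KO preGM, and the Lmo2 enhancer chr2:103812852-103812984, with 2.45 in wild type and 0.529 in KO preGM. The higher one was the Tal1 enhancer chr4:114730765-114731454, with 1.57 in wild type and 4.18 in KO preGM. No member reached 2-fold for H3K4me1, beside 0% higher and 0.00909% lower. At Lmo2, H3K27ac in KO preGM was higher than in wild type at 15 of the 35 enhancers and lower at 20, with a median log2 ratio of -0.16 and a range from -1.36 to 0.81. Of all 44002 enhancers, 24133 were higher and 19869 lower, with a median of 0.05. The highest Lmo2 ratio was at chr2:103776272-103776445, with 0.966 in wild type and 2.22 in KO preGM.

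Members with more CEBPA in wild type preGM were described apart. A CEBPA signal of at least 1 was found at 16 of the 138 (11.6%; 11.5% of all enhancers), 8 of Runx1, 3 of Gata2, 1 of Tal1, 4 of Lmo2 and none of Erg. In KO preGM, PU.1 was below its wild type value at 14 of the 16, with a median log2 ratio of -0.35, and at 81 of the other 122, with a median of -0.19. Of all enhancers, 83.9% of those with a CEBPA signal of at least 1 and 70.2% of the others were below wild type, so the members lay near these shares. Over all enhancers the medians were -0.50 and -0.24 in the same order. H3K27ac was below wild type at 9 of the 16 (56.2%, median -0.20) and at 63 of the 122 (51.6%, median -0.02). Over all enhancers the shares below wild type were 49.3% and 44.6% and the medians 0.01 and 0.05. The highest CEBPA signals did not go with the lowest PU.1 ratios throughout: chr16:92715302-92715902 of Runx1 went from 2.85 to 1.26 and chr4:114729602-114729660 of Tal1 from 8.62 to 4.6, whereas chr16:92716697-92716803 of Runx1 had the lowest ratio with a CEBPA signal of 0.519. That enhancer is a neighbour of chr16:92715302-92715902, which has the highest CEBPA signal of the 138, and a link between them was not tested.

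**Figure D4:**
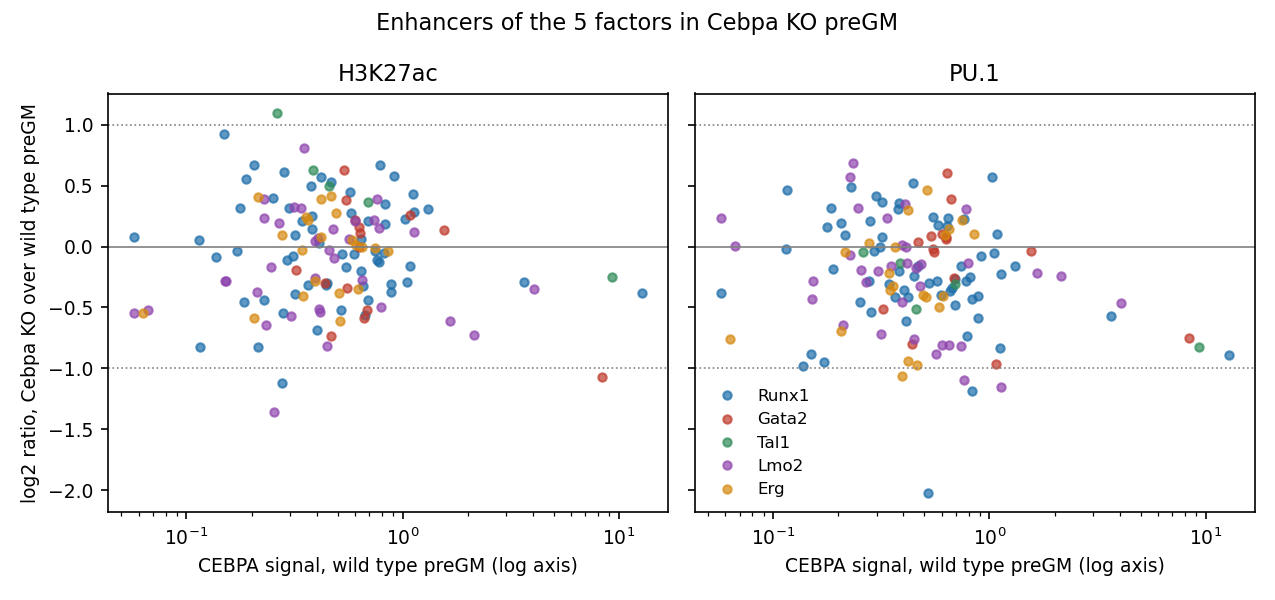
Log2 ratio of signal in Cebpa KO over wild type preGM for each of the 138 enhancers (colour by gene) against CEBPA signal in wild type preGM (log axis), for H3K27ac on the left and PU.1 on the right, with dotted lines at 2-fold. PU.1 ratios lie mostly below 0, and the lowest (-2.03, Runx1) is at a CEBPA signal under 1. The enhancer with that ratio is a neighbour of the Runx1 enhancer with the highest CEBPA signal.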

How the data were processed

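The deposited table lists enhancers with an assigned gene, classes and values. Its ChIP columns hold 1 signal value per enhancer and group, made by the authors from libraries that the labels list in pairs; scaling and depth are not given in the sources used here. The expression columns, read as a score on a linear scale, were deposited with no stated unit or libraries. Tools named in the submitters' processing notes, with neither role nor version, are STAR, featureCounts, DESeq2, bedtools, Bowtie2 and MACS2. Of the value columns, 15 of ChIP and 6 of expression were used and 11 were not, 5 with no listed sample and 6 of an undescribed quantity. Stage flags differed from the stage class at 27.3% of enhancers, so the class was used.

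A pseudocount, the 25th percentile of an assay's values rounded to 1 digit, was added before each log2 ratio: 0.7 for H3K27ac, 2 for H3K4me1, 0.6 for PU.1 and, set by hand, 1 for expression. Log2 ratios from 1 up, or from -1 down, count as 2-fold. Background shares cover all 44002 enhancers or 10096 genes. The members, lists and settings were chosen with earlier results of these data known. Enhancers were named by highest mean H3K27ac or PU.1, highest or lowest ratio per gene and comparison; others described, including neighbours and groups, and the CEBPA signal of 1, were chosen after their values were seen. Python 3.11.15, NumPy 2.4.6, pandas 2.3.3 and Matplotlib 3.10.9 were used, and the counting code was tested on simulated data. One listed gene is not reported here by name.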

Additional observations from a re-analysis of the deposited data

How the results depend on the processing

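Of 112 values recomputed for 30 counts of enhancers or genes, 76 stayed within 1.5 times the reported count and 36 did not, for which the cause was not tested. Many of the 76 are counts of 0 that stayed 0. A larger pseudocount or a signal filter could not raise a 0, so this tally does not measure how stable the counts are. With a 4 times smaller pseudocount, H3K27ac was at least 2-fold higher at 4 and lower at 6 members from LSK to preGM, higher at 25 and lower at 1 from preGM to GMP, higher at 6 from GMP to granulocytes, and higher at 6 and lower at 9 in KO preGM. H3K4me1 was then higher at 7 from preGM to GMP, and higher at 1 and lower at 20 from GMP to granulocytes. PU.1 was higher at 28 and lower at 4 from LSK to preGM, higher at 2 and lower at 5 from preGM to GMP, and higher at 2 and lower at 16 in KO preGM. With a 4 times larger pseudocount, H3K27ac was higher at 0 in each of the 4 comparisons, lower at 4 from GMP to granulocytes and at 0 in KO preGM. H3K4me1 was then higher at 0 from preGM to GMP and lower at 0 in granulocytes, and PU.1 was higher at 3 from LSK to preGM, lower at 0 from preGM to GMP and lower at 1 in KO preGM. After subtracting the median ratio of all enhancers, H3K27ac was higher at 3 and lower at 1 from preGM to GMP, H3K4me1 was higher at 0 there and lower at 19 in granulocytes, PU.1 was higher at 5 and lower at 3 from LSK to preGM and lower at 1 in KO preGM, and expression was lower for 1 gene in granulocytes. Keeping only enhancers at or above the median signal left 4 with lower H3K4me1 in granulocytes. No paired analysis was possible because the table does not separate replicates, and no library could be left out. Depth is unknown, so signals near the pseudocount carry no stated limit.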

Other observations

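For each member, the genes with the most similar expression over the 4 stage columns were found among 4728 genes that varied enough (SD of at least 0.5 on the log2 scale). With 4 columns many genes reach a high Pearson r, so these are descriptions with no test. For Gata2 the closest were B230219D22Rik (r = 0.997), Nop58 and Prmt2, and 7 genes reached an r of 0.99. For Erg, whose own SD of 0.49 is under that minimum, they were Cd86 (r = 0.992), Dusp2 and Irf2, the only 3 that reached it. Dusp2, a MAP kinase phosphatase gene, was 514 in LSK, 146 in preGM, 56.0 in GMP and 248 in granulocytes. For Lmo2 the closest were Fam65a, P2ry14 and Selenbp1, of 82 genes at 0.99 or more. P2ry14, a nucleotide-sugar receptor gene, was 1030 in LSK, 1073 in preGM, 129 in GMP and 22.6 in granulocytes. For Tal1 they were 6230427J02Rik, F2r and Myst4, of 89, and F2r, the thrombin receptor gene, was 803, 1139, 179 and 28.2 in the same order. For Runx1, whose own SD of 0.38 is also under the minimum, they were D14Abb1e, Eif3f and Phf20, of 224.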
